A study of Mus musculus with 16 samples.

Results

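Gene expression in methylcellulose was compared between LKR10 cells with a hairpin against Ankrd35 and LKR10 cells with a control hairpin against GFP. The comparison used 8 of the 16 libraries of the study, 4 labelled 3D shAnkrd35 and 4 labelled 3D shGFP, chosen by their labels alone and not by any measured value. LKR10 is a mouse lung adenocarcinoma cell line, and messenger RNA of the bulk culture was sequenced. All 8 cultures had been transduced with a pLKO lentiviral vector, kept for 48 h in puromycin at 4 µg/ml to select transduced cells, and cultured for 96 h more in complete DMEM with 10% FBS. The growth medium of all 8 held 0.5% methylcellulose (called 3D), which thickens the medium so that cells grow as suspended clusters. The remaining 8 libraries came from the same line and hairpins on a flat surface (2D). The labels give neither the hairpin sequences nor the number of hairpins used against Ankrd35. They also do not say whether the 4 replicates of a group were separate infections or cultures, so the spread that p-values rest on may be technical.

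Ankrd35 encodes a protein with ankyrin repeats, a fold through which many proteins bind other proteins. Cancer cells that grow without a surface receive no attachment signal through integrins, and growth in methylcellulose is commonly used to test whether they can do without it. In mouse lung adenocarcinoma, loss of the lung lineage factor Nkx2-1 is known to be accompanied by expression of stomach genes, with Hnf4a as a typical regulator of them.

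The reads assigned to genes numbered 23.43 to 28.72 M in the shGFP libraries and 13.82 to 25.46 M in the shAnkrd35 libraries, where library 3 was the shallowest. Levels are given in CPM, the reads of a gene scaled to the total of the library, and are listed for libraries 1 to 4 of a group in that order. CPM grows with transcript length, so CPM values of different genes are not compared. Of the 7 epithelial markers 5 were among the genes analysed, with Cdh1 at 496 to 532 CPM and Krt8 at 2998 to 3672 CPM over the 8 libraries. Epcam was low, at 1.04 to 2.78 CPM. Of the lung lineage markers Nkx2-1, Sftpc, Sftpb, Scgb1a1 and Napsa, 0 of 5 were among the genes analysed here. Of the defining markers of other cell types, 0 of 2 for lymphocytes, 0 of 3 for endothelium, 0 of 2 for red cells, 0 of 2 for neurons, 1 of 4 for macrophages and 5 of 7 for fibroblasts were among them. Of longer marker lists, 5 of 12 genes for endothelium and 4 of 14 for macrophages were measured. For red cells 1 of 8 was measured, for neurons 1 of 10 and for lymphocytes 0 of 12.

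The targeted gene was examined first. Ankrd35 (ENSMUSG00000038354, chromosome 3, 96670131 to 96691032, plus strand, mm10) was covered by 14, 17, 16 and 16 reads in the shGFP libraries. In the libraries labelled shAnkrd35 it had 12, 11, 9 and 9 reads. These counts correspond to 0.597 ± 0.055 CPM (SD, n = 4) with shGFP and 0.501 ± 0.093 CPM (SD, n = 4) with shAnkrd35. The ranges overlapped, because shAnkrd35 library 3 reached 0.632 CPM and shGFP library 4 lay at 0.538 CPM. An exact permutation test on CPM gave p = 0.143, two-sided, where 70 permutations allow a smallest p of 0.0286. The pooled read ratio was 0.815 with an exact 95% interval of 0.536 to 1.23, which covers counting error only. No decrease of Ankrd35 RNA was detected, and a ratio below 0.536 lay outside the interval. The hairpin labels thus rest on the submitters' word, and every direction below is that of the libraries so labelled. Of 11 measured genes on chromosome 3 near Ankrd35, 0 rose and 2 fell (0.0% and 18.2%, beside 15.0% and 14.6% of all genes tested), Lix1l by 0.20 and Txnip by 0.21 on the log2 scale. The call for Lix1l was lost without any 1 of shGFP library 1 and shAnkrd35 library 4 (log2 change -0.16 to -0.17, adjusted p = 0.0537 to 0.0551), and that for Txnip without any 1 of shGFP libraries 1 and 4 and shAnkrd35 libraries 1, 2 and 4 (log2 change -0.18 to -0.22, adjusted p = 0.0519 to 0.104). In the ankyrin repeat domain family 4 of 26 measured genes rose and 6 fell (15.4% and 23.1%). Ankrd1, a muscle and stress gene of that family, fell by 0.39.

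Across 12320 tested genes, 1854 (15.0%) rose and 1801 (14.6%) fell with shAnkrd35, which together made 29.7%. The words rose and fell are used for an adjusted p under 0.05, and changes are log2 fold changes of CPM with a small prior added, which understates changes of low genes. Most changes were small. The median size among called genes was 0.34 on the log2 scale, against 0.14 over all genes tested. A change of at least 2-fold was called in 157 genes upward (1.27%) and 109 downward (0.885%). Libraries of the 2 groups did not overlap in 2318 genes that were higher (18.8%) and 2386 that were lower (19.4%). The test takes its spread from all 16 libraries. In a fit of the 8 libraries of 3D alone, 18 of the genes given below as not passing did pass, at the same log2 change: Abca3, Apob, Bmp5, Bmpr1a, Bmpr2, Cxcl5, Cyr61, Ddx3x, Egfr, Egr1, Fasn, Fos, Foxa3, Id3, Myh9, Vim, Zeb2 and Zfp36. Once a trend with length and GC content was removed, 15 such genes passed: Akt2, Apob, Atf4, Bmpr1a, Bmpr2, Egfr, Hif1a, Id1, Id3, Ptch1, Srebf1, Srebf2, Vcl, Vim and Zeb2. Gata4 passed with group weights (adjusted p = 0.0467) and without shGFP library 2 or shAnkrd35 library 4. Vcl also passed without shGFP library 2. The median change over all genes was -0.0005, which serves as the reference for the gene lists below. Counts of list members that rose and fell are likewise to be read beside 15.0% and 14.6% of all genes. The lists were chosen with earlier results of these data known, so these shares describe the lists and test nothing. Fold change correlated across genes with GC content (Spearman rho 0.217, 12216 genes) and less with exonic length (rho 0.036). Genes of a library share its depth and base composition and are not independent.

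**Figure D1:**
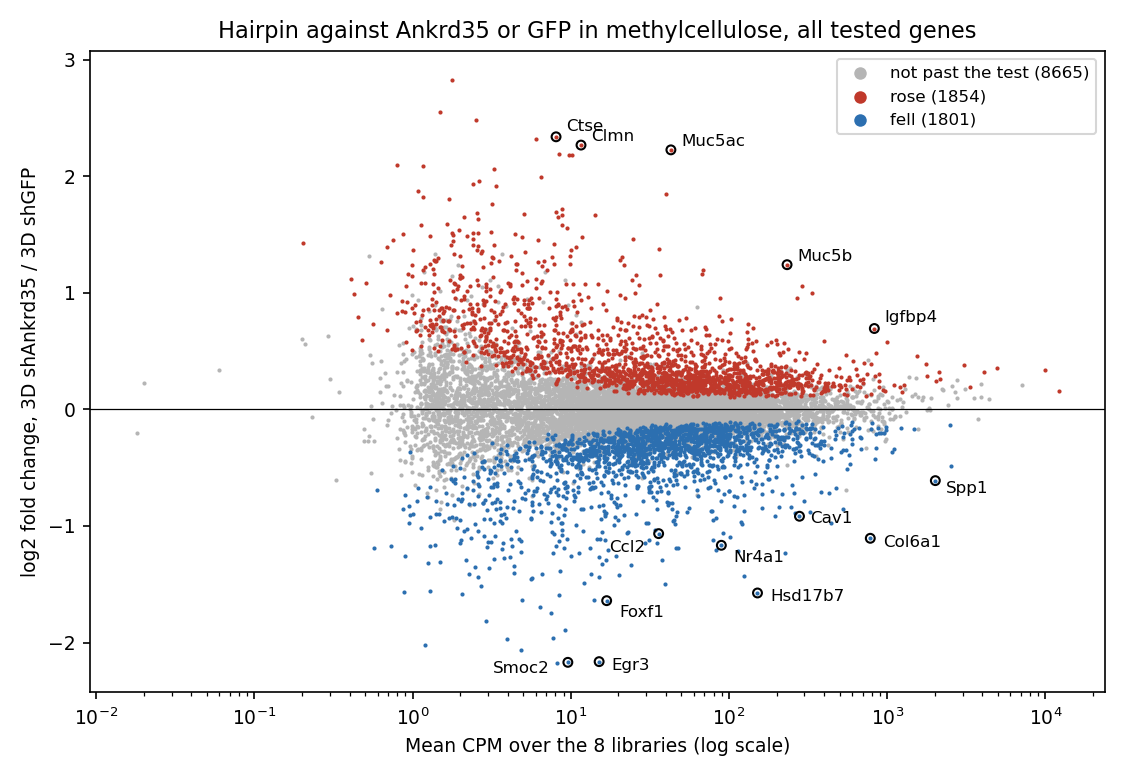
Log2 fold change of 3D shAnkrd35 against 3D shGFP (vertical axis) against mean CPM over the 8 libraries (horizontal axis, log scale), 1 point per tested gene. Grey points did not pass an adjusted p of 0.05, red points are the 1854 genes that rose, blue points the 1801 that fell, and circles with labels mark some of the named genes. Changes of more than 1 lie mainly at the left, among genes of low CPM, apart from genes such as Muc5b, Col6a1 and Hsd17b7.

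Among the genes that rose most were Ctse, Muc5ac, Clmn, Ogdhl and Ckmt1. Ctse, the gene of the stomach protease cathepsin E, was at 2.44, 2.96, 1.93 and 3.23 CPM with shGFP and at 15.04, 12.5, 13.1 and 13.3 CPM with shAnkrd35. All shAnkrd35 libraries stood far above all shGFP libraries, and Ctse rose by 2.34 on the log2 scale (SE 0.14, adjusted p = 3.27e-09), the largest rise among the genes ranked here. Muc5ac, a gel-forming mucin secreted by stomach surface and airway goblet cells, was at 15.4, 14.4, 16.2 and 14.3 CPM with shGFP and at 75.8, 63.8, 73.1 and 70.5 CPM with shAnkrd35. The lowest shAnkrd35 library again exceeded the highest shGFP library several times over, and the rise was 2.23 (SE 0.16, adjusted p = 1.98e-08). Clmn, which encodes a membrane protein with an actin-binding domain, went from 3.66, 4.01, 4.21 and 3.87 CPM to 19.1, 19.2, 19.2 and 19.6 CPM. Its 4 libraries within each group lay close together and the rise was 2.27 (SE 0.13, adjusted p = 1.48e-09). In bulk RNA, more RNA per cell and more cells that express a gene cannot be told apart, here or for any gene below.

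Ogdhl, a relative of the oxoglutarate dehydrogenase of the citric acid cycle, stood at 2.93, 4.01, 3.47 and 4.03 CPM with shGFP and 20.2, 15.7, 15.2 and 15.6 CPM with shAnkrd35. Within the shAnkrd35 group library 1 was the highest, the groups were well separated, and the rise was 2.18 (SE 0.12, adjusted p = 1.24e-09). Ckmt1, a mitochondrial creatine kinase, stood at 2.40, 2.49, 3.01 and 2.29 CPM and 9.86, 10.7, 11.5 and 9.41 CPM. It too was higher in every shAnkrd35 library, by 1.99 (SE 0.20, adjusted p = 9.81e-07). Dgat2, which catalyses the last step of triglyceride synthesis, rose by 1.48 (SE 0.10, adjusted p = 1.74e-08), and Smpd3, a neutral sphingomyelinase, by 1.65. Other genes taken by the ranking were Clic6 of the chloride intracellular channel family (rise of 2.19), the myosin relative Myo15b (2.18), the carbonic anhydrase-related Car8 (1.72), the sortilin family receptor Sorcs2 (1.67), the immunoglobulin superfamily member Igsf9 (1.67) and the large cadherin Fat2 (1.40). All of them had no overlap between groups, a condition of the ranking. The mitochondrial gene mt-Co2 also qualified, at 3.26, 3.27, 2.55 and 3.29 CPM against 9.54, 5.91, 30.2 and 6.18 CPM. Library 3 stood far above the others, and reads of this gene can be shared with near-identical nuclear copies, so its value is uncertain. Mogat2, a neighbour of Dgat2 on chromosome 7, also encodes an acyltransferase of triglyceride synthesis and was chosen after its values were seen. It was at 0.366, 0.546, 0.463 and 0.303 CPM with shGFP and at 1.87, 1.51, 1.68 and 1.92 CPM with shAnkrd35. The rise was 1.87 (SE 0.21, adjusted p = 4.46e-06, and 0.95 on the log2(CPM + 1) scale), with as few as 9 reads in a library. All shGFP values lay under the 1 CPM of the filter. The gene was thus kept through other groups, and a fall could hardly have been seen.

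Among the genes that fell most were Smoc2, Egr3, Grem1, Foxf1 and Hsd17b7. Smoc2, a secreted matrix-associated protein, was at 15.2, 14.7, 16.7 and 16.2 CPM with shGFP and at 2.73, 3.09, 3.93 and 4.11 CPM with shAnkrd35. The highest shAnkrd35 library was far below the lowest shGFP library, and Smoc2 fell by 2.17 (SE 0.15, adjusted p = 1.36e-08). Egr3, a zinc finger transcription factor induced within minutes by growth factor signals, was at 25.4, 23.2, 28.7 and 21.7 CPM and 5.83, 6.74, 4.70 and 4.68 CPM. The groups were far apart, with shGFP library 3 the highest of all, and Egr3 fell by 2.16 (SE 0.20, adjusted p = 5.04e-07). Grem1, a secreted inhibitor of bone morphogenetic proteins, was at 14.2, 13.8, 14.97 and 15.02 CPM and 4.48, 5.08, 2.88 and 3.27 CPM. All shAnkrd35 libraries were low, libraries 3 and 4 the lowest, and the fall was 1.89 (SE 0.25, adjusted p = 2.66e-05).

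Hsd17b7, a reductase of cholesterol synthesis, showed a fall at a higher read depth, from 229, 218, 231 and 229.5 CPM to 73.9, 76.5, 74.3 and 79.6 CPM. The libraries of each group were tightly grouped, and the fall was 1.57 (SE 0.05, adjusted p = 3.04e-12). Foxf1, a transcription factor of lung and gut mesenchyme, went from 23.7, 26.7, 26.5 and 25.2 CPM to 8.11, 9.29, 9.12 and 6.29 CPM. No libraries overlapped and Foxf1 fell by 1.64 (SE 0.11, adjusted p = 7.02e-09). Fendrr, a long noncoding RNA gene that starts on the opposite strand next to Foxf1, fell by 1.49 (SE 0.19, adjusted p = 1.34e-05). On chromosome 8, Fendrr (121054882 to 121083110, minus strand) and Foxf1 (121084386 to 121088144, plus strand, mm10) are 1.3 kb apart. Further falls were those of Ranbp3l, a relative of a Ran-binding protein (2.18), Dsc2, a cadherin of desmosomes (1.70), the antiviral membrane protein Ifitm3 (1.59), the cyclophilin Ppic (1.497), Slc16a10, a carrier of aromatic amino acids (1.96), Pid1 (1.46), Fetub of the fetuin family (1.44) and the monooxygenase Fmo2 (1.43). Trbc1, a constant segment of the T cell receptor, fell by 1.45 from 8.31 ± 0.779 CPM (SD, n = 4), while 0 of 12 lymphocyte markers were among the genes analysed.

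**Figure D2:**
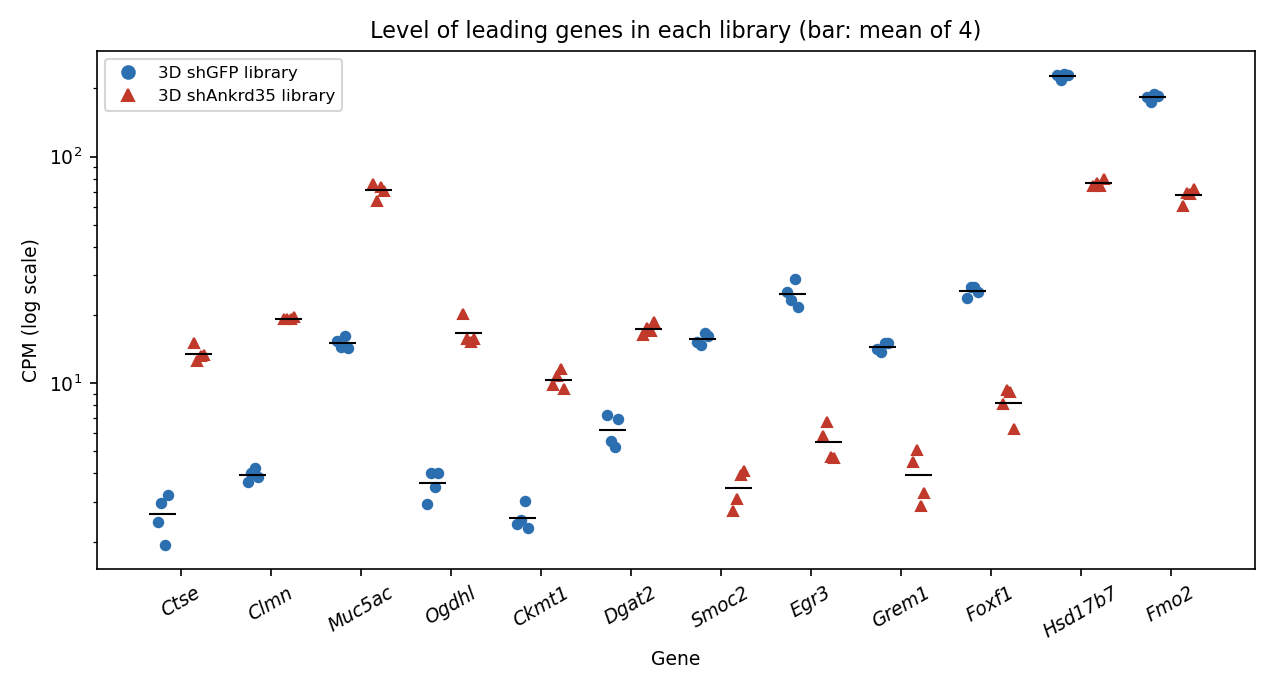
CPM (vertical axis, log scale) of 12 named genes in each of the 4 shGFP libraries (blue circles) and the 4 shAnkrd35 libraries (red triangles) of 3D, with a bar at each group's mean. Ctse, Clmn, Muc5ac, Ogdhl, Ckmt1 and Dgat2 are higher in every shAnkrd35 library, while Smoc2, Egr3, Grem1, Foxf1, Hsd17b7 and Fmo2 are lower in each.

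Among the 6 most strongly covered genes with a change of at least 1.5-fold, 5 fell. Spp1, the secreted adhesion protein osteopontin, was at 2299.6, 2371, 2421 and 2661 CPM with shGFP and at 1535, 1597, 1624 and 1619.7 CPM with shAnkrd35. Every shAnkrd35 library was lower, and Spp1 fell by 0.61 (SE 0.09, adjusted p = 5.73e-05). Col6a1, a chain of collagen VI, was at 1052, 1095, 1078 and 1048 CPM and 514, 477, 507 and 487 CPM, so that every shAnkrd35 library held less than any shGFP library. It fell by 1.11 (SE 0.04, adjusted p = 3.04e-12), and its partner chain Col6a2, 85.2 kb away on chromosome 10, fell by 0.97 (SE 0.04, adjusted p = 1.25e-10). Vcam1, an adhesion molecule for leukocytes, fell by 0.86 and Dap, a death-associated protein, by 0.68. The gene that rose was Igfbp4, a secreted binder of insulin-like growth factors, from 639, 644, 617 and 634 CPM to 1106, 989, 1059 and 951 CPM. All 4 shAnkrd35 libraries were above all shGFP libraries and the rise was 0.69 (SE 0.06, adjusted p = 1.28e-07).

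In the list of gastric and intestinal lineage genes, 17 of 23 measured members rose and 2 fell, which is 73.9% and 8.7% beside 15.0% and 14.6% of all genes. Their median change was 0.64 beside -0.0005 over all genes. The list was chosen with earlier results of these data known and holds genes of the ranking above, such as Ctse and Muc5ac. Its share is thus partly built in. Of the transcription factors 7 of 11 rose and 1 fell. Hnf4a, a nuclear receptor of gut and liver epithelium, was at 12.2, 11.03, 13.4 and 12.2 CPM with shGFP and at 30.6, 30.1, 30.7 and 29.5 CPM with shAnkrd35. Its libraries did not overlap, and it rose by 1.31 (SE 0.12, adjusted p = 3.47e-07). Klf4, a factor of differentiating epithelium that is also an immediate early gene, rose by 0.70 (SE 0.05, adjusted p = 2.39e-08), and the pioneer factor Foxa1 by 0.45 (SE 0.06, adjusted p = 1.72e-05). Smaller rises were those of Klf5 (0.37) and Gata6 (0.30), while Gata4 (0.52), Foxa2 (0.15) and Foxa3 (0.33) did not pass the test. The member that went the other way was Cdx2, the intestinal master factor, at 27.1, 28.6, 27.4 and 27.1 CPM with shGFP and 16.5, 16.4, 19.02 and 14.4 CPM with shAnkrd35. Its groups did not overlap either, and it fell by 0.74 (SE 0.09, adjusted p = 6.14e-06).

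The mucins placed in the gastric and intestinal list included Muc5b, a second gel-forming mucin. A place in this list does not make a gene particular to stomach or gut, and Muc5ac is also made by airway goblet cells. Muc5b was at 149, 134, 148 and 123 CPM with shGFP and at 357, 295, 322 and 335 CPM with shAnkrd35. The lowest shAnkrd35 library was well above the highest shGFP library, and Muc5b rose by 1.24 (SE 0.09, adjusted p = 2.62e-08). Muc5ac (141788972 to 141819231) and Muc5b (141839070 to 141873084) lie 19.8 kb apart on the plus strand of chromosome 7. The membrane mucin Muc1 was at 0.28 and did not pass. Of 8 surface and brush border genes 7 rose. Lgals4, a gut lectin, went from 18.4, 20.7, 20.1 and 21.01 CPM to 56.3, 44.7, 56.5 and 52.1 CPM, with no overlap and a rise of 1.38 (SE 0.11, adjusted p = 9.10e-08). The actin bundler villin, Vil1, rose by 1.51 from a low level of 1.31 ± 0.181 CPM, and the intestinal cadherin Cdh17 by 0.98. The junction proteins Vsig1 and Cldn18 rose by 0.91 and 0.56, and the adhesion molecule Ceacam1 by 0.64. The exception in this group was Epcam, a broad epithelial adhesion molecule, which fell by 1.01 (SE 0.30, adjusted p = 0.0182) at the low level given above.

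Of the 10 measured liver and pancreas secreted genes, 4 rose and 0 fell, with a median of 0.72. Agt, which encodes the precursor of angiotensin, was at 40.9, 42.3, 40.6 and 42.9 CPM with shGFP and at 93.7, 87.8, 100.5 and 91.2 CPM with shAnkrd35. Every shAnkrd35 library had about the same raised level, and the rise was 1.16 (SE 0.09, adjusted p = 3.80e-08). The elastase Cela1 rose by 0.60, transferrin (Trf) by 0.98 and Apoe by 0.84. Apoe was uneven, at 5.29, 7.48, 4.94 and 5.78 CPM with shGFP and 6.56, 16.97, 7.93 and 13.5 CPM with shAnkrd35, and the groups overlapped. Its call was lost without any 1 of shGFP libraries 1, 3 and 4 and shAnkrd35 libraries 2 and 4 (log2 change 0.61 to 0.84, adjusted p = 0.0513 to 0.0726) and in a fit of the 8 libraries alone (adjusted p = 0.0775). Albumin (Alb) was at 5.82, 6.35, 4.13 and 5.34 CPM with shGFP and 3.55, 31.2, 6.81 and 13.1 CPM with shAnkrd35. Its change of 0.89 did not pass, but without shAnkrd35 library 1 it was 1.38 and passed (adjusted p = 0.0251). Apob (0.77) did not pass either, but passed in the fit of the 8 libraries alone (adjusted p = 0.00275) and under 4 other settings (adjusted p = 0.0104 to 0.0479). Fgb (-0.18) and Hp (0.07) were close to 0.

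The list of lung epithelial lineage genes had 14 measured members, of which 5 rose and 3 fell (median 0.16). The rises were in transcription factors, 5 of 9 of them. Sox9, a factor of the distal lung tip and other progenitor epithelia, was at 81.5, 81.1, 78.3 and 74.7 CPM with shGFP and 129, 128, 127 and 113 CPM with shAnkrd35. Every shAnkrd35 library was higher, by 0.65 (SE 0.07, adjusted p = 2.06e-06). Elf3 rose by 0.74 and Etv5 by 0.32. Id2 fell by 0.49 and the basal cell factor Trp63 by 0.53 from 2.997 ± 0.109 CPM. Of 5 genes of differentiated alveolar cells 0 rose and 1 fell, which was Cav1, the main protein of caveolae and a marker of alveolar type 1 cells. Cav1 was at 353, 350.4, 375 and 381 CPM with shGFP and at 192, 188, 184 and 209 CPM with shAnkrd35, so the groups were far apart, and it fell by 0.92 (SE 0.05, adjusted p = 5.55e-10). The water channel Aqp5, another alveolar type 1 gene, was at 0.11 and the lipid transporter Abca3 at 0.16, neither past the test.

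Genes of epithelial junctions and keratins moved in both directions, with 14 of 32 measured members higher (43.8%) and 6 lower (18.8%). Of 7 keratins 5 rose. Krt7 rose by 1.81 from 0.701 ± 0.110 CPM (1.11 on the log2(CPM + 1) scale). Like Mogat2, it was under the 1 CPM of the filter in every shGFP library and was kept through other groups. The abundant simple keratins Krt8, Krt18 and Krt19 rose by 0.19, 0.25 and 0.19, but under quantile normalization Krt8 (0.01) and Krt18 (0.08) did not pass. Nor did they once the trend with length and GC content was removed, at 0.13 (adjusted p = 0.309) and 0.18 (adjusted p = 0.106). The call for Krt8 was also lost without any 1 of shGFP libraries 1 and 2 and shAnkrd35 libraries 1, 3 and 4 (log2 change 0.17 to 0.19, adjusted p = 0.0526 to 0.0813), and that for Krt19 without any 1 of shGFP libraries 1, 3 and 4 and shAnkrd35 libraries 1 and 3 (log2 change 0.15 to 0.20, adjusted p = 0.0598 to 0.118) and without trend and robust fitting (adjusted p = 0.0563). Among tight junction genes, Tjp3, a scaffold protein, was at 11.8, 11.7, 11.96 and 12.5 CPM with shGFP and at 30.6, 29.2, 28.98 and 28.1 CPM with shAnkrd35. These values did not overlap and the rise was 1.28 (SE 0.11, adjusted p = 1.78e-07). Cingulin (Cgn) rose by 1.08 and Cldn6 by 0.69, whereas Cldn12 fell by 0.53. Desmosomal genes split: Dsp, the plaque protein desmoplakin, rose by 0.56, whereas Pkp1, a plakophilin, fell by 0.55 and Dsc2 fell as described. E-cadherin (Cdh1) was at 0.03 (SE 0.04) and did not pass the test. Of the factors that govern epithelial state, Esrp2 rose by 0.38, Snai1 fell by 0.61, and Zeb1 (0.01) and Zeb2 (-0.20) did not pass.

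**Figure D3:**
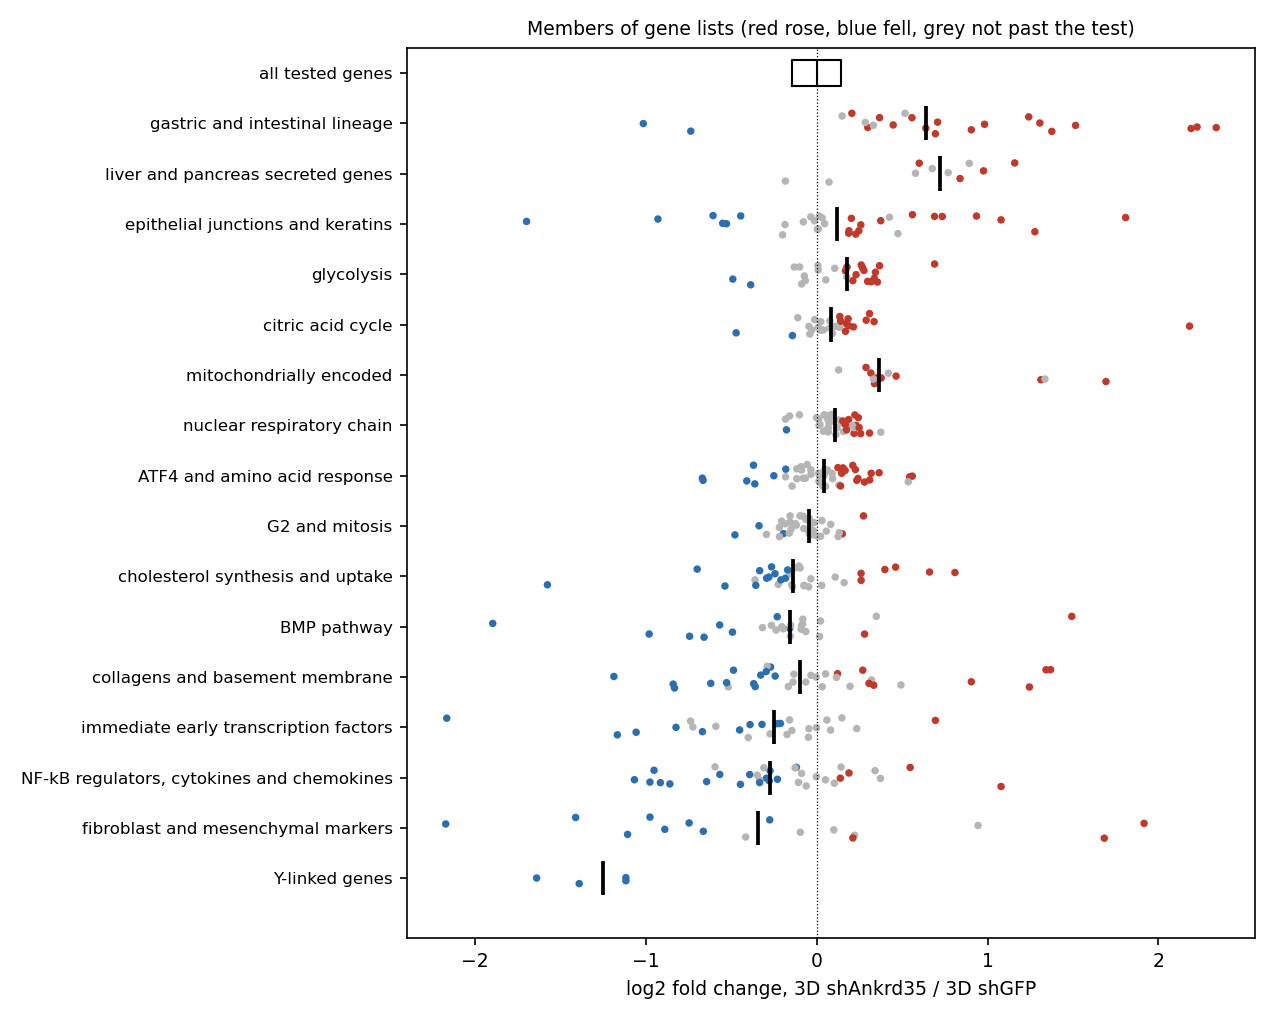
Log2 fold change of 3D shAnkrd35 against 3D shGFP (horizontal axis) for the measured members of 16 gene lists, 1 point per gene, in red for genes that rose, blue for genes that fell and grey for the rest, with a black bar at each list's median. The top row shows all 12320 tested genes as a box from the first to the third quartile with its median at -0.0005. The gastric and intestinal list lies mainly to the right, and the NF-kB and immediate early lists mainly to the left.

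Of 16 measured fibroblast and mesenchymal markers 3 rose and 8 fell, with a median of -0.34. Pdgfrb, the receptor of platelet-derived growth factor B, was at 18.1, 19.02, 20.7 and 19.8 CPM with shGFP and at 6.81, 6.66, 9.12 and 6.65 CPM with shAnkrd35. All shAnkrd35 libraries were low, library 3 slightly less so, and Pdgfrb fell by 1.41 (SE 0.11, adjusted p = 6.60e-08). Sparc, a collagen-binding matrix protein, fell by 0.89 (SE 0.06, adjusted p = 2.62e-08). Against the list, Des, the intermediate filament desmin, rose by 1.92 from 1.36 ± 0.280 CPM, and Fbln2, a matrix glycoprotein, by 0.21, a value of 0.11 that did not pass once the trend with length and GC content was removed. Col1a2, a chain of collagen I, was at 1.67, 1.66, 10.5 and 2.91 CPM with shAnkrd35 against 0.733, 0.779, 0.695 and 1.55 CPM with shGFP, and library 3 stood apart from its group. Col1a2 rose by 1.68 (SE 0.43, adjusted p = 0.00796), by 1.10 without that library, and did not pass in a fit of the 8 libraries alone (adjusted p = 0.0663). Col1a1 showed the same library at the top, at 2.36, 2.14, 22.7 and 4.73 CPM against 2.40, 3.08, 1.89 and 2.72 CPM, and did not pass the test. Vim, the most strongly covered member, was at 0.10 and did not pass. The summed level of the list was 6669 to 6813 CPM with shGFP and 5995 to 6348 CPM with shAnkrd35. The fibroblast markers Dcn and Lum were not among the genes analysed, and whether a share of other cells changed was not tested.

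Of the mesenchymal transcription factors near the Hedgehog pathway, 3 of 4 fell. Meox2, a homeobox factor, went from 5.99, 6.001, 6.33 and 7.02 CPM to 1.63, 2.18, 0.982 and 1.61 CPM, without overlap and with a fall of 1.97 (SE 0.28, adjusted p = 5.68e-05). Foxc1 fell by 0.51, a call that was lost without any 1 of shGFP libraries 1 and 2 and shAnkrd35 libraries 2 and 4 (log2 change -0.47 to -0.48, adjusted p = 0.0516 to 0.0593). Foxf2, the close relative of Foxf1, was at -0.04 (SE 0.08) and did not pass. The Hedgehog receptor and target Ptch1 (-0.10) and the transducer Smo (0.07) did not pass the test either, and the ligand Dhh rose by 0.24.

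Bone morphogenetic proteins (BMPs) signal through type I and type II receptors to SMAD transcription factors, and secreted antagonists hold them back. Of 25 measured genes of the pathway 2 rose and 8 fell (median -0.16). Among ligands, Bmp4 was at 38.8, 42.8, 37.5 and 37.2 CPM with shGFP and 26.1, 25.5, 22.5 and 24.9 CPM with shAnkrd35. Each shAnkrd35 library was lower and Bmp4 fell by 0.66 (SE 0.06, adjusted p = 4.34e-07), whereas Bmp7 rose by 1.49 from a low 0.941 ± 0.390 CPM (0.93 on the log2(CPM + 1) scale) and Bmp5 was at -0.15. Of 8 inhibitors 4 fell and 0 rose. Twsg1, a secreted modulator that binds BMPs, went from 159, 153, 161 and 166 CPM to 78.8, 81.1, 80.1 and 83.3 CPM, with clear separation and a fall of 0.98 (SE 0.08, adjusted p = 1.03e-07). The decoy receptor Bambi fell by 0.74 and chordin (Chrd) by 0.23, beside Grem1 above, and the call for Chrd was lost without shGFP library 1 (log2 change -0.20, adjusted p = 0.0615). Of the receptors Acvr2a fell by 0.57 and Acvr1 by 0.16. The call for Acvr2a was lost without any 1 of shGFP libraries 1, 3 and 4 and shAnkrd35 libraries 1, 2, 3 and 4 (log2 change -0.52 to -0.59, adjusted p = 0.0536 to 0.0861) and that for Acvr1 without any 1 of shGFP libraries 1 and 2 and shAnkrd35 libraries 1 and 4 (log2 change -0.13 to -0.15, adjusted p = 0.0529 to 0.0860) and under quantile normalization (adjusted p = 0.0604). Bmpr1a (-0.26) and Bmpr2 (-0.20) did not pass, but both did in the fit of the 8 libraries alone (adjusted p = 0.00457 and 0.0305). None of the 4 measured SMAD effectors passed the test. Of the target genes Id2 fell, as given above, and Id1 (-0.08) and Id3 (-0.19) did not pass. Id3 was lower in every shAnkrd35 library and passed in the fit of the 8 libraries alone (adjusted p = 0.00496) and under 4 other settings (adjusted p = 6.58e-04 to 0.0489).

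In the TGF-beta and activin pathway 5 of 30 measured genes rose and 7 fell, shares near those of all genes. The ligand Tgfb3 fell by 0.68 (SE 0.06, adjusted p = 2.72e-07), the co-receptor Tgfbr3 by 0.91 (SE 0.10, adjusted p = 4.40e-06) and the latency protein Ltbp1 by 0.35. The signalling receptors Tgfbr1 (-0.03) and Tgfbr2 (0.08) did not pass.

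Collagen and basement membrane genes numbered 34, of which 8 rose and 12 fell (median -0.10). Thbs1, the matrix protein thrombospondin 1, was at 328, 312, 332 and 297 CPM with shGFP and 168, 177, 182 and 182 CPM with shAnkrd35, again without overlap. It fell by 0.84 (SE 0.06, adjusted p = 1.503e-08). The collagen lysyl hydroxylase Plod2 fell by 1.19 (SE 0.09, adjusted p = 5.35e-08), fibronectin (Fn1) by 0.49 (SE 0.06, adjusted p = 9.10e-06) and the fibril-associated collagen Col12a1 by 0.83. In contrast 4 of 10 laminin and basement membrane genes rose and 1 fell. Of the collagens, the fibrillar collagen gene Col27a1 was at 4.52, 4.99, 4.63 and 4.30 CPM and 10.1, 10.6, 12.9 and 10.7 CPM. It was higher in all shAnkrd35 libraries, by 1.24 (SE 0.11, adjusted p = 2.88e-07). Among matrix proteases, the plasminogen activators Plau and Plat fell by 1.19 and 0.75 (SE 0.08, adjusted p = 1.77e-08 and SE 0.06, adjusted p = 1.64e-07) and the secreted serine protease Htra1 by 1.06 (SE 0.06, adjusted p = 2.08e-09). Over the list of 28 proteases and inhibitors, 3 rose and 5 fell (10.7% and 17.9%).

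Immediate early genes encode transcription factors that growth factors switch on through ERK and the serum response factor, without new protein synthesis. Of 26 measured members 1 rose and 10 fell (3.85% and 38.5%), with a median of -0.25. Nr4a1, a nuclear receptor of this class, was at 129, 124, 135 and 108 CPM with shGFP and at 55.6, 60.3, 51.3 and 53.1 CPM with shAnkrd35. Every shAnkrd35 library was at less than the lowest shGFP library by a wide margin, and Nr4a1 fell by 1.17 (SE 0.12, adjusted p = 1.66e-06). Egr2 was at 10.2, 11.03, 10.4 and 9.28 CPM and 4.28, 4.44, 4.63 and 6.34 CPM, with shAnkrd35 library 4 the highest of its group but still below all controls. Egr2 fell by 1.06 (SE 0.17, adjusted p = 1.33e-04), Atf3 by 0.82, Fosb by 0.67, Maff by 0.45, Junb by 0.39 (a call lost without any 1 of shGFP library 3 and shAnkrd35 library 4 (log2 change -0.36 to -0.37, adjusted p = 0.0580 to 0.0592)) and Srf, the serum response factor itself, by 0.32 (SE 0.06, adjusted p = 6.29e-04). Egr1 was lower in every shAnkrd35 library, at 46.2, 44.97, 53.6 and 44.4 CPM against 77.9, 84.1, 83.96 and 69.7 CPM. Its change of -0.74 nevertheless had an SE of 0.38 and did not pass (adjusted p = 0.168), in a fit whose spread includes the 2D libraries. In a fit of the 8 libraries alone it passed (adjusted p = 4.45e-07), as did Fos (adjusted p = 0.0174). In the fit of all 16 libraries Fos (-0.72), Jun (0.08) and Myc (-0.05) did not pass, and the member that rose was Klf4, described above.

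The serum response factor binds the CArG box, and the promoters of Egr2 and Srf are shown because both genes fell and both windows hold that motif. Each line gives the 250 bases before the RefSeq start in GRCm38.p6, read 5′ to 3′ on the gene's strand, with the CArG box in capitals. The Egr2 window is chr10:67537316-67537565 on the plus strand and the Srf window is chr17:46556163-46556412 on the minus strand.
Egr2: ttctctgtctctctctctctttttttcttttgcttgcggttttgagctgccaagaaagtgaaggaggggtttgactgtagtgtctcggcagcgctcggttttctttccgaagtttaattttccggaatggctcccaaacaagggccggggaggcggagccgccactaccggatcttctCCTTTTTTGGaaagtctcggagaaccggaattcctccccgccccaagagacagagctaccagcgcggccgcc
Srf: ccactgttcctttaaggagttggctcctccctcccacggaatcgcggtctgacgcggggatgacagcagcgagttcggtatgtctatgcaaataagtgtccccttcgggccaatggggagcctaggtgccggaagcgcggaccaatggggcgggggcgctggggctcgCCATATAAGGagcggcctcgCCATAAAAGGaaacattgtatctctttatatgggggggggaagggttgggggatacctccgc
The box of Egr2 spans bases 72 to 63 before the start, and the 2 boxes of Srf span bases 82 to 73 and 62 to 53. The motif reads the same way on both strands, so each match counts once. Windows of 300 bases, from 250 before to 50 after a start, held a CArG box in 1.63% of 32851 RefSeq windows and in 1.48% of 9308 tested genes with a window. Of 19 immediate early genes with a window 3 held one, Egr2, Srf and Zfp36, of which 2 fell and Zfp36 (-0.27) did not pass. Egr3 had no window in the table.

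Actin and serum response factor target genes gave 1 rise and 8 falls among 23 measured, with a median of -0.06. Tpm1, a tropomyosin that stabilises actin filaments, was at 958, 983, 924 and 951 CPM with shGFP and at 704, 722, 736 and 680.1 CPM with shAnkrd35. The groups did not overlap and Tpm1 fell by 0.43 (SE 0.06, adjusted p = 2.23e-05). The calponins Cnn2 and Cnn3 fell by 0.51 and 0.37, Tpm4 by 0.29 and the focal adhesion protein Zyx by 0.23. Fhl2 rose by 0.23, a call lost without any 1 of shGFP library 2 and shAnkrd35 library 3 (log2 change 0.18 to 0.21, adjusted p = 0.0562 to 0.0687), and Actb (0.11), Vcl (-0.13) and Myh9 (0.21) did not pass. Of 19 members with a promoter window 6 held a CArG box, of which 2 fell and 1 rose.

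The ERK pathway list was mixed, with 8 of 50 measured genes higher and 12 lower. Of its 11 measured ligands 3 fell and 0 rose, and these 3 bind the epidermal growth factor receptor. Ereg, epiregulin, was at 39.2, 38.5, 42.98 and 38.6 CPM with shGFP and 20.01, 19.4, 18.5 and 23.3 CPM with shAnkrd35. All shAnkrd35 libraries were lower by far, and Ereg fell by 0.97 (SE 0.10, adjusted p = 9.66e-07). Amphiregulin (Areg) fell by 0.67 (SE 0.11, adjusted p = 1.48e-04) and betacellulin (Btc) by 0.71 (SE 0.12, adjusted p = 1.77e-04), while Hbegf (0.13) and the receptor Egfr (-0.19) did not pass. The feedback regulators divided. Among the phosphatases of this list, 3 of 6 rose and 0 fell. Dusp4 went from 233, 219.8, 244 and 230.4 CPM to 320.5, 336, 313 and 334 CPM. All its shAnkrd35 libraries were higher, with a rise of 0.49 (SE 0.05, adjusted p = 2.87e-06). Dusp5 and Dusp10 rose by 0.45 and 0.33, and Dusp6 was at -0.10 and did not pass. Among feedback inhibitors Errfi1, which blocks the epidermal growth factor receptor, fell by 0.48, Spry1 by 0.49 and Spry4 by 0.45, whereas Spred3 rose by 0.57.

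Cells make cholesterol through a chain of enzymes whose genes are switched on by the factor SREBP2 when membrane sterol is low, while LXR receptors switch on export when it is high. Of 20 synthesis enzymes 8 fell and 1 rose, and of 7 uptake and efflux genes 4 rose and 2 fell. Hmgcs1, which makes the precursor of mevalonate, was at 118, 124, 127 and 127 CPM with shGFP and at 77.5, 73.2, 69.7 and 86.2 CPM with shAnkrd35. Library 4 was the highest of the shAnkrd35 group and still well below the controls, and Hmgcs1 fell by 0.70 (SE 0.10, adjusted p = 6.43e-05). Dhcr7, which encodes a reductase of the last steps, was at 23.5, 25.4, 23.1 and 23.7 CPM and 18.3, 18.9, 18.4 and 19.2 CPM, without overlap. It fell by 0.36 (SE 0.06, adjusted p = 3.21e-04), and Mvd, Msmo1, Sqle and Cyp51 fell by 0.33, 0.26, 0.21 and 0.18. Hsd17b7, given above, fell most. The sterol sensor partner Insig1 fell by 0.29 (SE 0.05, adjusted p = 2.07e-04), whereas Srebf2, which encodes SREBP2, was at -0.07 and did not pass.

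Genes of sterol export were among those of this list that rose. Abcg1, a sterol exporter, went from 6.31, 6.23, 5.94 and 6.29 CPM to 10.8, 10.6, 10.03 and 12.3 CPM, higher in every shAnkrd35 library. It rose by 0.81 (SE 0.12, adjusted p = 7.66e-05), the exporter Abca1 by 0.46 (SE 0.10, adjusted p = 0.00197), and Mylip, a ubiquitin ligase that LXR receptors induce, by 0.66 (SE 0.09, adjusted p = 1.78e-05). The endosomal transporter Npc1 rose by 0.40 and the LXR receptor gene Nr1h3 by 0.26. The promoter of Hmgcs1 is shown because it was the 1 window of 24 in this list with the sterol regulatory element searched for, TCACNCCAC on both strands. It covers chr13:119690101-119690350 on the plus strand, 250 bases before the RefSeq start in GRCm38.p6, with the element in capitals at bases 137 to 129 before the start.
Hmgcs1: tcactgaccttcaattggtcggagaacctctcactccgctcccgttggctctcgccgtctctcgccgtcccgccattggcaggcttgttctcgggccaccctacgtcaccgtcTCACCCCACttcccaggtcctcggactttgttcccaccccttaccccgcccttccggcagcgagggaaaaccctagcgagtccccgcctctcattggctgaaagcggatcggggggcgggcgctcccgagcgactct
The element stood in 1.24% of the 32851 RefSeq windows and 1.34% of tested genes with a window.

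Genes of fatty acid synthesis and storage moved in both directions, 8 up and 7 down of 32 (25.0% and 21.9%). Beside Dgat2, the carboxylase Acacb rose by 0.65 (SE 0.09, adjusted p = 3.52e-05) and Acly, which supplies cytosolic acetyl-CoA, by 0.28. Elovl5, an elongase of polyunsaturated fatty acids, was at 209, 218, 218 and 217 CPM with shGFP and 138, 141, 143 and 147 CPM with shAnkrd35, without overlap, and fell by 0.60 (SE 0.03, adjusted p = 1.88e-09). Fasn (0.16), Scd1 (-0.06) and Srebf1 (-0.06) did not pass.

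NF-kB is a family of transcription factors held in the cytoplasm by inhibitors, and its targets include chemokines that attract monocytes and neutrophils. In this list 16 of 34 measured genes fell (47.1%) and 4 rose (11.8%), with a median of -0.28. Of 10 chemokines 5 fell and 1 rose. Ccl2, which attracts monocytes, was at 50.8, 49.4, 51.2 and 43.3 CPM with shGFP and at 22.4, 22.4, 23.9 and 23.96 CPM with shAnkrd35. All shAnkrd35 libraries lay close together and far below the controls, and Ccl2 fell by 1.07 (SE 0.11, adjusted p = 1.02e-06). Its neighbour Ccl7, 8.3 kb away on chromosome 11, fell by 0.98 (SE 0.14, adjusted p = 6.00e-05). Cxcl1, which attracts neutrophils, was at 21.5, 23.4, 21.8 and 19.7 CPM and 10.9, 13.1, 10.6 and 11.2 CPM, again without overlap. Cxcl1 fell by 0.91 (SE 0.25, adjusted p = 0.0121), Cxcl16 by 0.57 and Cx3cl1 by 0.33, whereas Cxcl15 rose by 0.55 and Cxcl5 (-0.31) and Cxcl3 (-0.11) did not pass. The colony-stimulating factor Csf1 fell by 0.39 and the prostaglandin enzyme Ptgs2 by 0.64.

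Of the 13 measured regulators 7 fell and 1 rose. The subunit gene Rel was at 61.1, 60.2, 60.2 and 56.3 CPM with shGFP and at 31.1, 32.2, 25.8 and 34.4 CPM with shAnkrd35. All shAnkrd35 libraries were low, library 3 the lowest, and Rel fell by 0.95 (SE 0.15, adjusted p = 1.57e-04). Nfkb1 fell by 0.23 and the inhibitors Tnfaip3 and Nfkbia, which are themselves targets, by 0.45 and 0.28. Against the list, the alarmin Il33 went from 8.39, 7.79, 7.18 and 8.03 CPM to 16.6, 17.8, 15.6 and 16.6 CPM, higher in every shAnkrd35 library, and rose by 1.08 (SE 0.09, adjusted p = 2.48e-07). The promoter of Cxcl1 is shown for its kappaB site, the binding sequence of these factors. It covers chr5:90890995-90891244 on the plus strand, 250 bases before the RefSeq start in GRCm38.p6. The capitals mark 2 overlapping matches of the site, 1 on each strand, at bases 71 to 62 and 70 to 61 before the start.
Cxcl1: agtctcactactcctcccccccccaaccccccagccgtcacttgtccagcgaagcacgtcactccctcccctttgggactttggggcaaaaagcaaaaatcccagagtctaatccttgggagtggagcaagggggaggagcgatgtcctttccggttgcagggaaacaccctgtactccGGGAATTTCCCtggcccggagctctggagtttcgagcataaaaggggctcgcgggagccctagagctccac
A kappaB site stood in 8.46% of the 32851 windows, in 12.2% of tested genes with a window, and in 12 of the 25 members of this list with a window, of which 7 fell and 1 rose.

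Interferon response and antigen presentation genes numbered 28, of which 2 rose and 5 fell (7.14% and 17.9%). Ifitm3, which fell by 1.59, was at 13.1, 13.5, 12.8 and 11.5 CPM with shGFP and 3.26, 4.52, 5.05 and 4.002 CPM with shAnkrd35, with no overlap (SE 0.17, adjusted p = 2.66e-06). Ifitm1, 39.8 kb away on chromosome 7, fell by 1.13 (SE 0.22, adjusted p = 9.37e-04), whereas the family member Ifitm2 was at -0.05 and did not pass. These genes are similar in sequence, so reads may have been split between them. Of 8 antigen presentation genes 3 fell, Tapbp by 0.34, H2-D1 by 0.24 and H2-T23 by 0.26, and Irf1 (0.07) did not pass.

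Enzymes of glucose use mostly rose. Of 16 measured glycolytic enzymes 11 rose and 1 fell, with a median of 0.22. Hk2, the inducible hexokinase of the first step, was at 54.03, 55.02, 57.03 and 54.4 CPM with shGFP and at 86.7, 85.0, 90.2 and 94.2 CPM with shAnkrd35. It was higher in every shAnkrd35 library, by 0.69 (SE 0.09, adjusted p = 1.94e-05). Gpi1, Aldoa, Tpi1, Pgam1 and Ldha rose by 0.36, 0.34, 0.28, 0.37 and 0.21, and Aldoc fell by 0.39. The glucose transporter Slc2a1 moved against them, from 108, 107, 106 and 99.7 CPM to 73.8, 74.2, 74.3 and 77.2 CPM, without overlap and with a fall of 0.49 (SE 0.04, adjusted p = 1.36e-07). Slc2a1 is also a target of hypoxia-inducible factors. In that list 3 of 23 measured genes rose and 9 fell, with a median of 0.04, so the list as a whole was not shifted down. The factor gene Epas1 fell by 1.12 (SE 0.07, adjusted p = 1.19e-08), the mitophagy receptor Bnip3l by 0.95 (SE 0.05, adjusted p = 1.48e-09) and Vhl by 0.52, whereas Hif1a (0.10) and Vegfa (-0.16) did not pass.

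Of 28 citric acid cycle genes 11 rose and 2 fell (39.3% and 7.14%), most by little. Beside Ogdhl, Idh3a rose by 0.34 and Sdhb by 0.31, while the pyruvate dehydrogenase subunit Pdhb fell by 0.47. Creatine kinases went apart. Ckb, the cytosolic brain-type enzyme, was at 60.9, 61.1, 59.8 and 59.4 CPM with shGFP and at 30.8, 29.5, 30.7 and 31.2 CPM with shAnkrd35, tightly grouped and far apart, and fell by 0.98 (SE 0.06, adjusted p = 2.64e-09), opposite to Ckmt1. Of 38 nuclear genes of the respiratory chain 11 rose and 1 fell, with a median of 0.11. Of 12 mitochondrially encoded genes 8 rose and 0 fell, with a median of 0.36. Among these mt-Nd6, a subunit of complex I, was at 489, 486, 404 and 461 CPM and 723, 623, 626 and 571 CPM and rose by 0.46 (SE 0.08, adjusted p = 2.31e-04; adjusted p = 0.0546 once the trend with length and GC content was removed). The subunit gene mt-Co1 rose by 0.34 (SE 0.06, adjusted p = 7.40e-04), but its change was 0 under quantile normalization. The share of all reads on mitochondrial genes was 2.35% to 2.62% in the shGFP libraries and 2.89% to 3.26% in the shAnkrd35 libraries. Such a share can also move with RNA quality or cell state, and its part in these values was not tested.

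Of 28 ribosome biogenesis genes 8 rose and 1 fell, and Nop2, Rrp12 and Polr1b rose by 0.25, 0.31 and 0.27. Odc1, the first enzyme of polyamine synthesis, was at 179.7, 174, 173 and 184 CPM with shGFP and at 274, 256, 252 and 277 CPM with shAnkrd35. The groups did not overlap and Odc1 rose by 0.57 (SE 0.06, adjusted p = 1.64e-06), whereas 4 of the 7 polyamine genes fell. Of 36 cytosolic ribosomal protein genes 0 rose and 4 fell, with a median change of -0.01. In S phase and replication 6 of 44 genes rose and 8 fell (13.6% and 18.2%), shares near those of all genes. Cdc25a rose by 0.49 and the cyclin D1 gene Ccnd1 by 0.25, while Cdk6 fell by 0.70 (SE 0.10, adjusted p = 4.37e-05). In G2 and mitosis 2 of 38 rose and 3 fell, with Mki67 at -0.03 (SE 0.22) and Cdc20 at -0.04 (SE 0.06). Cenpa, the centromeric histone, fell by 0.48 and Ccnb2 by 0.34. Among p53 targets 4 of 26 rose and 2 fell (15.4% and 7.69%), and Cdkn1a was at 0.06 (SE 0.06).

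Of the stress lists, NRF2 and glutathione defence gave 13 falls and 1 rise among 40 measured genes, with a median of -0.06. Cat, the gene of catalase, was at 166, 166, 165 and 168 CPM with shGFP and at 119.7, 120.1, 119 and 126 CPM with shAnkrd35. It fell by 0.46 (SE 0.04, adjusted p = 1.23e-07) with no overlap, Gstp1 by 0.41 and the cystine carrier Slc7a11 by 0.67. The classical NRF2 targets Gclm (-0.04), Txnrd1 (0.01) and Hmox1 (0.02) did not pass, and Nqo1, at 1.13 ± 0.119 CPM with shGFP, did not pass either. Endoplasmic reticulum genes gave 1 rise and 8 falls of 27. Xbp1, a factor of the unfolded protein response, fell by 0.36 and the chaperone gene Hspa5 by 0.25. Of 49 genes on the ATF4 and amino acid response list 15 rose and 7 fell, with a median of 0.04. Got1 and Sesn2 rose by 0.56 and 0.54 (SE 0.04, adjusted p = 1.67e-08 and SE 0.07, adjusted p = 7.48e-06), and Atf4 (-0.09), Asns (0.05) and Slc7a5 (-0.03) did not pass. In the lysosome list 9 of 17 enzymes rose, led by Ctsh (0.47), whereas the proton pump subunit Atp6v1a fell by 0.85 (SE 0.07, adjusted p = 7.26e-08).

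Several cell communication pathways showed changes of single members in both directions. Notch receptors are cut on contact with ligands on a neighbouring cell. Notch1 was at 101, 95.8, 103 and 95.1 CPM with shGFP and at 163, 162, 170.4 and 161 CPM with shAnkrd35, all shAnkrd35 libraries being higher. It rose by 0.73 (SE 0.06, adjusted p = 6.54e-08), Notch4 by 1.04 and the ligand Jag1 by 0.67 (SE 0.07, adjusted p = 1.91e-06), whereas Notch3 went from 11.2, 11.96, 10.96 and 10.7 CPM to 5.14, 4.74, 4.91 and 4.83 CPM. The Notch3 libraries did not overlap and it fell by 1.18 (SE 0.13, adjusted p = 3.92e-06), the ligand Dll1 fell by 0.70, and the target Hes1 (-0.08) did not pass. In the Wnt pathway 4 of 25 rose and 6 fell. The inhibitor Apcdd1 fell by 0.82 (SE 0.06, adjusted p = 2.87e-08) and the receptor Fzd4 by 0.66 (SE 0.06, adjusted p = 7.99e-07), while Fzd8 and Fzd2 rose by 0.47 and 0.42.

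Of the Hippo effectors, Wwtr1, which encodes the coactivator TAZ, was at 161, 156, 160.0 and 164 CPM with shGFP and at 84.2, 89.9, 85.9 and 90.1 CPM with shAnkrd35. The groups were far apart and Wwtr1 fell by 0.87 (SE 0.05, adjusted p = 3.08e-09), whereas Tead2 rose by 0.55 and its relative Yap1 by 0.15. The call for Yap1 was lost without any 1 of shGFP libraries 1, 2 and 3 and shAnkrd35 libraries 2, 3 and 4 (log2 change 0.13 to 0.16, adjusted p = 0.0562 to 0.0875). Of 13 targets 5 fell and 2 rose, among them Ankrd1 as given above, and Ctgf (0.23) and Cyr61 (-0.59) did not pass the test. The Cyr61 libraries did not overlap, and it passed in the fit of the 8 libraries alone (adjusted p = 4.51e-05) and with group weights (adjusted p = 0.0113). In insulin and IGF signalling Akt1 (0.04) and Akt2 (-0.06) did not pass. Beside the rise of Igfbp4, Igfbp7 fell by 0.56 (SE 0.12, adjusted p = 0.00293). Among integrins 3 of 14 rose and 4 fell (21.4% and 28.6%). Itga6, a laminin receptor subunit, fell by 0.60 on the log2 scale (SE 0.07, adjusted p = 7.35e-06), Itgav by 0.50 and Itgb1 by 0.25. Among clock genes Per1 fell by 0.67 (SE 0.06, adjusted p = 1.55e-07) and Bhlhe40 by 0.56, and Arntl (-0.09) did not pass.

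**Figure D4:**
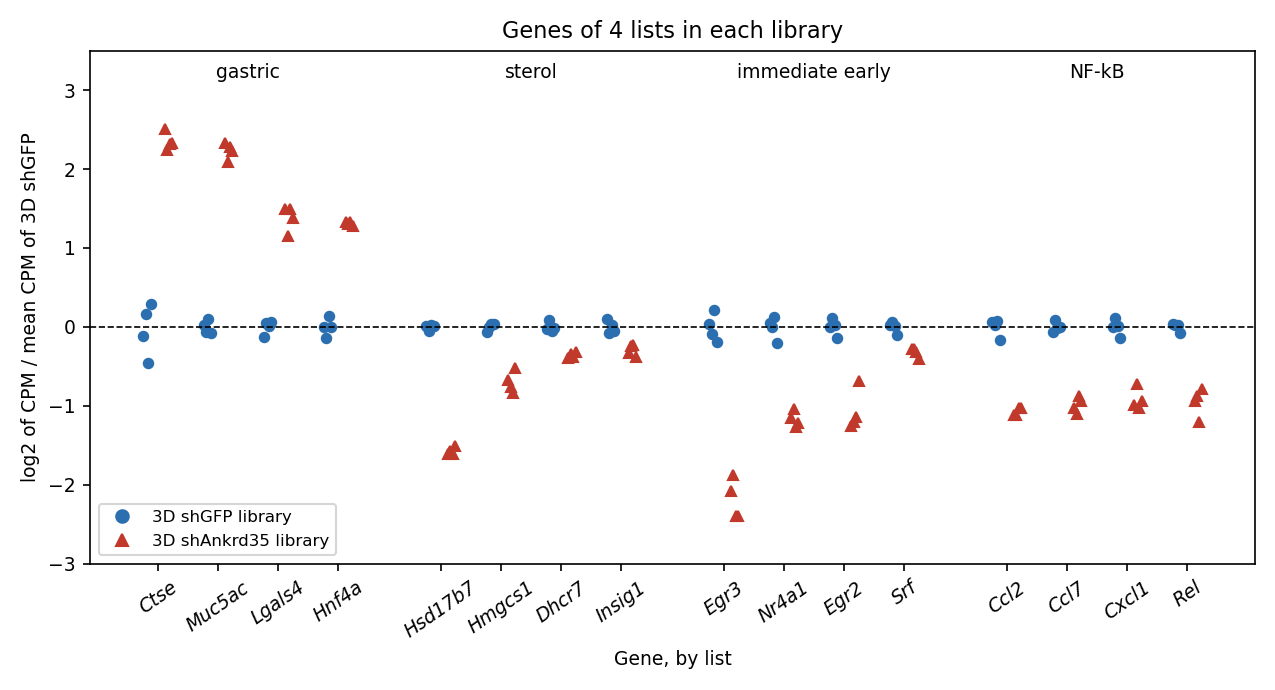
CPM of each library divided by the mean of the 4 shGFP libraries (vertical axis, log2 scale), for 4 genes each of the gastric, sterol, immediate early and NF-kB lists. Blue circles are shGFP libraries and red triangles shAnkrd35 libraries of 3D, and the dashed line at 0 is the shGFP mean. The 4 gastric genes lie above the line in every shAnkrd35 library and the 12 others below it.

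The 4 measured genes of the Y chromosome fell together. Ddx3y was at 20.9, 21.04, 21.3 and 21.5 CPM with shGFP and at 5.62, 8.47, 6.60 and 6.60 CPM with shAnkrd35, without overlap, and fell by 1.64 (SE 0.32, adjusted p = 0.00125). Eif2s3y fell by 1.39, Kdm5d by 1.12 and Uty by 1.12. Their summed level was 52.9, 52.9, 54.7 and 51.2 CPM in the shGFP libraries and 18.4, 22.7, 20.8 and 20.3 CPM in the shAnkrd35 libraries. The shAnkrd35 libraries were thus all far below all controls, and none was near 0. The fall was not particular to methylcellulose: in 2D 4 of 4 also fell, with a median of -0.91 beside -1.25 in 3D. The difference between the cultures passed the test for 1 of the 4. A lower share of cells with a Y chromosome and less RNA per cell from it cannot be told apart in bulk RNA. Of their measured partners on the X chromosome 0 of 4 passed the test, with Ddx3x at -0.20 and Kdm5c at 0.10. The median changes of the 19 autosomes lay between -0.07 and 0.05. The groups thus also differed in the level of Y-linked genes, and the part of that difference in the other changes was not tested.

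Where the genes above were set beside the flat cultures, the same hairpin contrast was tested in the 2D libraries and the difference of the contrasts was tested in the same model. In 2D 57.9% of the genes tested passed, 28.8% with a fall and 29.0% with a rise. Of the genes that rose in 3D 1117 also rose in 2D, which is 60.2% of the 3D and 31.2% of the 2D list, and 944 fell in both (52.4% and 26.6%). A further 149 rose in 3D and fell in 2D, and 205 fell in 3D and rose in 2D. The 3D and 2D contrasts share no libraries. The difference itself passed in 17.1% of genes upward and 18.6% downward.

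Several leading changes had much the same size in both. Ctse was at 2.34 in 3D and 2.23 in 2D (difference 0.11, SE 0.20, adjusted p = 0.704), Ogdhl at 2.18 and 2.32, Ckmt1 at 1.99 and 2.04, Grem1 at -1.89 and -2.32, and Col6a1 at -1.11 and -1.11, and none of these differences passed the test. Others were larger in 3D. Muc5ac was at 2.23 in 3D and 0.94 in 2D (difference 1.29, SE 0.22, adjusted p = 4.40e-04), Smoc2 at -2.17 and -0.63 (-1.54, SE 0.21, adjusted p = 4.97e-05), Egr3 at -2.16 and -0.52 (-1.64, SE 0.28, adjusted p = 4.50e-04), Foxf1 at -1.64 and -0.27 (-1.37, SE 0.15, adjusted p = 5.97e-06), and Hsd17b7 at -1.57 and -0.68 (-0.89, SE 0.07, adjusted p = 3.13e-07). Hsd17b7 was not typical of its list in 2D, where 13 of 20 measured cholesterol synthesis enzymes rose and 3 fell. Over all genes 29.0% rose and 28.8% fell there. The change of Hnf4a was smaller in 3D, 1.31 against 2.32 in 2D (-1.01, SE 0.17, adjusted p = 3.10e-04).

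Other genes changed in opposite directions in the 2 cultures, each past the test. Nr4a1 was at -1.17 in 3D and 0.94 in 2D (difference -2.10, SE 0.16, adjusted p = 3.82e-07). Ccl2 was at -1.07 and 0.56 (-1.63, SE 0.15, adjusted p = 1.26e-06), Cxcl1 at -0.91 and 0.70 (-1.61, SE 0.35, adjusted p = 0.00347), and Ckb at -0.98 and 0.34 (-1.32, SE 0.08, adjusted p = 1.87e-08). The intestinal factor Cdx2 was at -0.74 and 0.71 (-1.44, SE 0.12, adjusted p = 4.63e-07), and Klf4 at 0.70 and -0.70 (1.39, SE 0.07, adjusted p = 3.38e-09). Fat2 and Sorcs2 rose in 3D and fell in 2D, where they were at -0.38 and -0.28 (differences 1.78 and 1.95, SE 0.17, adjusted p = 2.29e-06 and SE 0.16, adjusted p = 3.82e-07).

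**Figure D5:**
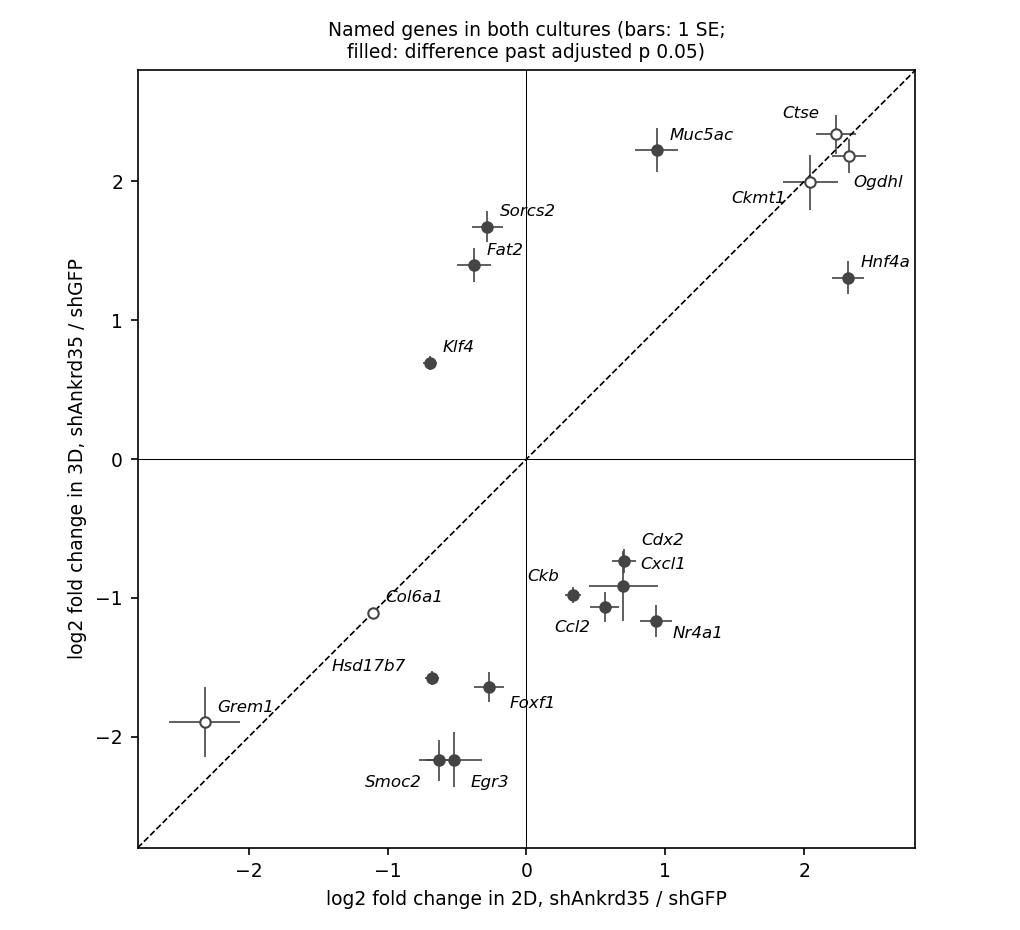
Log2 fold change of shAnkrd35 against shGFP in 3D (vertical axis) and in 2D (horizontal axis) for the 19 named genes set side by side, with bars of 1 SE. Filled points are genes whose 3D and 2D values differed at an adjusted p under 0.05, open points did not pass, and the dashed line marks equal change.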

How the data were processed

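RNA from 16 LKR10 cultures was sequenced, 4 per group, and the 8 libraries of 3D are described here. Per the submitters' processing notes, the tools included Trimmomatic 0.38, STAR 2.5.1b and edgeR, with genome build mm10. The deposited table holds log2 CPM, with a prior of about 2 reads, for 12321 genes. Except for Ankrd35 every gene reached 1 CPM in at least 8 libraries, so the table had been filtered before deposit. Removing the prior gave whole reads for all values within 0.01, and depths are the totals of these recovered reads. CPM divides the recovered reads by the effective library size that the deposited values imply. The symbols of 406 genes whose form had been altered were restored, and 12217 symbols matched GENCODE M21 (104 did not).

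A linear model of the deposited log2 CPM in 4 groups was fitted to all 16 libraries with limma 3.58.1 (R 4.3.3, trend and robust fitting), so that the groups share 1 estimate of spread. Genes needed 1 CPM in at least 4 libraries, which removed Ankrd35, tested by an exact permutation test instead. The threshold was an adjusted p of 0.05, by Benjamini and Hochberg's method, across all 12320 genes tested. Count tests had been planned. The table holds log2 values, so limma was used, with a voom fit on the recovered reads as an alternative. Alternatives covered scaling, filters, pseudocount, library weights, the replicate block, a trend with length and GC content, and leaving out each of the 8 libraries of 3D and 1 library of 2D.

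Named genes were Ankrd35, the 16 highest and 16 lowest past the threshold without overlap and at a mean of at least 5 CPM, the 6 most abundant with at least a 1.5-fold change, and from each list up to 6 members by p with those that went against it or completed a role. Not every gene taken by this rule is reported here. The members and lists were chosen with earlier results of these data known. Promoters came from RefSeq (GRCm38.p6).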

Additional observations from a re-analysis of the deposited data

Results flagged for a closer look

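In a group of 4 libraries a value was marked when the highest or lowest library lay apart from the other 3 by more than Dixon's 95% limit. Among 562 groups examined, 38 values were marked, where chance marks about 1 in 20.

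Library 1 of shGFP stood apart as the lowest for Krt18 (1840.0 CPM) and Elovl5 (209 CPM). Library 2 of shGFP stood apart as the lowest for Vcl (271 CPM), Hsd17b7 (218 CPM), Scd1 (313 CPM) and Fzd4 (28.7 CPM). Library 3 of shGFP stood apart as the highest for Ereg (43 CPM), Rrp12 (63.4 CPM) and Uty (7.49 CPM). Library 3 of shGFP stood apart as the lowest for Ppic (54.9 CPM) and mt-Co2 (2.55 CPM). Library 4 of shGFP stood apart as the highest for Col1a2 (1.55 CPM) and H2-D1 (187 CPM). Library 4 of shGFP stood apart as the lowest for Dll1 (6.72 CPM) and Per1 (81.5 CPM).

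Library 1 of shAnkrd35 stood apart as the highest for Ogdhl (20.2 CPM) and Tapbp (123 CPM). Library 1 of shAnkrd35 stood apart as the lowest for Apob (2.69 CPM) and Cxcl15 (6.89 CPM). Library 2 of shAnkrd35 stood apart as the highest for Cela1 (36.6 CPM) and Eif2s3y (6.28 CPM). Library 2 of shAnkrd35 stood apart as the lowest for Des (4.33 CPM). Library 3 of shAnkrd35 stood apart as the highest for Col1a1 (22.7 CPM), Akt1 (305 CPM), Pdgfrb (9.12 CPM), Col1a2 (10.5 CPM) and mt-Co2 (30.2 CPM). Library 4 of shAnkrd35 stood apart as the highest for Egfr (38.7 CPM), Itga6 (151 CPM), Cat (126 CPM), Slc2a1 (77.2 CPM), Mki67 (483 CPM) and Egr2 (6.34 CPM). Library 4 of shAnkrd35 stood apart as the lowest for Sox9 (113 CPM), Fosb (5.35 CPM), Bmp7 (2.29 CPM), Areg (21 CPM) and Junb (99.99 CPM). Library 3 of shAnkrd35 was the shallowest of the 8 libraries, and its values for Col1a1, Col1a2 and mt-Co2 stand beside the results that use them.

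Of 19 genes set beside the flat cultures, 14 had a hairpin effect that differed between 3D and 2D. This rests on a test of the difference in the model, at an adjusted p under 0.05. The same test passed in 35.8% of all genes tested, and the 19 were picked from the named genes and not at random. Their count thus does not show how often the effect depends on culture. The 3D effect minus the 2D effect on the log2 scale was given for Ckb (-1.32), Klf4 (1.39), Hnf4a (-1.01), Nr4a1 (-2.10), Smoc2 (-1.54), Hsd17b7 (-0.89), Sorcs2 (1.95), Cxcl1 (-1.61), Cdx2 (-1.44), Egr3 (-1.64), Ccl2 (-1.63), Muc5ac (1.29), Foxf1 (-1.37) and Fat2 (1.78).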

How the results depend on the processing

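The counts of 1854 genes that rose and 1801 that fell stayed within 1.5 times under every setting tried, and no gene called here was called in the opposite direction under any of them. The settings that kept all 8 libraries of 3D gave 1554 to 2546 genes higher and 1643 to 2611 lower. A fit of the 8 libraries of 3D alone gave 2477 and 2611, and limma group weights gave 2546 and 2472. With a filter at a mean of at least 5 CPM, 58 genes were at least 2-fold higher and 62 at least 2-fold lower, against 157 and 109, because genes of low CPM were no longer tested. On the log2(CPM + 1) scale, which shrinks low genes, the counts were 67 and 70. Leaving out 1 library of 3D at a time gave 1506 to 1736 genes higher, 1473 to 1597 lower, 129 to 174 at least 2-fold higher, 106 to 115 at least 2-fold lower, 1687 to 1994 and 1899 to 2238 genes with a difference from 2D upward and downward, and a pooled read ratio of Ankrd35 of 0.7645 to 0.8689. Quantile normalization set the change of mt-Co1 to 0.00 in place of 0.34.

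Replicate numbers did not pair the libraries: correlations of same-numbered deviations were 0.08, 0.04, -0.25 and 0.28 over 10296 genes, and no library matched best with its own number. With the replicate block 1748 genes rose and 1700 fell, with 1891 and 2121 differences from 2D. Among named genes, the block ended the calls of Acvr2a (adjusted p = 0.0521) and Txnip (adjusted p = 0.0530), and Cyr61 passed (adjusted p = 0.0215). The voom fit on recovered reads (1916 higher, 1905 lower) and the fit without 2D shAnkrd35 library 1 (2222 and 2107) were chosen after seeing the data. The planned edgeR and DESeq2 fits were not run, and the voom fit was the only test of recovered reads. Genes at a few CPM have the largest SE, and the Ankrd35 level rests on 9 to 17 reads a library, which limits what can be said of the targeted gene.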
